A study of Mus musculus with 16 samples.

Results

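Mc4r, Npr3, Fam84b, Chst8 and Krt2 are 5 of 39017 gene rows measured in prelimbic cortex (PL) neurons of the mouse. They were chosen by symbol because earlier readings of these data had them highest in neurons that send axons to the ventral tegmental area (VTA). That choice used the IP over Input fold changes of all 3 projections studied, so the values of the 5 genes are given below as a description and carry no test. All 5 symbols were found, once each.

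The study worked in C57BL/6J mice with vTRAP, a viral form of translating ribosome affinity purification. AAV-IV-GFPL10, a virus encoding a ribosomal protein fused to green fluorescent protein, was delivered to PL. CAV-Cre, a canine adenovirus that enters axon endings and carries Cre, was delivered to a target region so that the neurons reaching it made the tagged ribosomes. Every mouse carried both viruses, and no group without Cre was analysed here. The 6 groups were PL-VTA IP and PL-VTA Input with 2 libraries each, PL-NAc IP and PL-NAc Input with 3 each, and PL-BLA IP and PL-BLA Input with 3 each, where NAc is the nucleus accumbens and BLA the basolateral amygdala. IP is the RNA pulled down with antibodies to the tag, and Input is the RNA of the same PL tissue before the pull-down. The labels give no age or sex, and they do not say whether a library came from 1 mouse or a pool, so standard errors (SE) and p-values measure only the spread between these libraries, which may be technical.

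Neurons of cortical layer 5 fall into broad classes by where their axons go. Extratelencephalic neurons send axons out of the telencephalon, the part of the forebrain with cortex, striatum and amygdala, for example to the midbrain and brainstem. Intratelencephalic neurons keep their axons within cortex, striatum and amygdala. The 5 genes come from unrelated families. Mc4r encodes a G protein-coupled receptor for melanocortin peptides cut from the Pomc precursor, is blocked by agouti-related protein, and is best known for limiting food intake through the hypothalamus. Npr3 encodes the natriuretic peptide receptor that lacks a guanylyl cyclase domain and clears these peptides. Fam84b is a little-studied gene of the family with an LRAT-like domain. Chst8 encodes an enzyme that adds sulfate to N-acetylgalactosamine, known for its action on pituitary glycoprotein hormones. Krt2 encodes a type II keratin, an intermediate filament protein known from the upper epidermis.

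Promoter sequences are shown for Npr3, Chst8 and Krt2, because genes picked for one expression pattern invite the question whether their start regions look alike. They are the 3 of the 5 genes matched in a RefSeq table for build GRCm38.p6, and each window runs from 250 bases before the annotated start to 50 bases after it. Npr3 is at chr15:11907322-11907621, Chst8 at chr7:34812662-34812961 and Krt2 at chr15:101818120-101818419, all on the minus strand and written 5′ to 3′ along the gene. Capitals mark matches, on either strand, to any of the following motifs. The first is the core TATA element, TATAA. The second is the box bound by Sp1, GGGCGG. The third is ATGCAAA, part of the octamer that POU factors bind. The last is TGACG, part of the cyclic AMP response element. No match overlaps another.
Npr3: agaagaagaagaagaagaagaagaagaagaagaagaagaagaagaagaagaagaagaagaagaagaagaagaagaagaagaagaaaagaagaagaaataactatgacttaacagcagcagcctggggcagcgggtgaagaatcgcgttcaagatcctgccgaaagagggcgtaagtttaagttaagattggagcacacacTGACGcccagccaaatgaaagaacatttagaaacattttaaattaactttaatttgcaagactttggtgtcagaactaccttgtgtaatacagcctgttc
Chst8: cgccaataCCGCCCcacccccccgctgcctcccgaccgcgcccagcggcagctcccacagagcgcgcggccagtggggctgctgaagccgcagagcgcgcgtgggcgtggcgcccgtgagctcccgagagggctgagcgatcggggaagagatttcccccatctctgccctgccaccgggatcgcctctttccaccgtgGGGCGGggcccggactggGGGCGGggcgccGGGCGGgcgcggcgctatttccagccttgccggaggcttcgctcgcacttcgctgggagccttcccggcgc
Krt2: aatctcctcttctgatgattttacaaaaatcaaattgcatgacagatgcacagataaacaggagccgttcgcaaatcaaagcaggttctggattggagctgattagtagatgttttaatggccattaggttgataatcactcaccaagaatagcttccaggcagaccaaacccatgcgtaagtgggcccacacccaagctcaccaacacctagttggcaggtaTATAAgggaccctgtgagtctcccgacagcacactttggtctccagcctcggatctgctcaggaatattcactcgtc
The windows differ in composition. Chst8 is 75% G and C, more than 96.1% of all 32851 promoters in that table, and holds 4 GC boxes, a motif present in 35.7% of them. Npr3 is 39% G and C, opens with a long run of an agaaga repeat and holds 1 TGACG, found in 20.8% of promoters. Krt2 is 46.3% G and C and holds 1 TATAA, found in 24.9%, just ahead of its start. No window holds ATGCAAA, found in 4.63%. The E-box CANNTG, which was searched on both strands and is not in capitals, is met once each in Npr3 and Krt2 and not in Chst8, against 72.3% of all promoters. No motif searched was met in all 3 windows.

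Values of expression came from 1 comparison table for each projection, made by the authors with DESeq2, which holds a mean normalized read count over the libraries of that projection and a log2 fold change of IP over Input. Values for single libraries were not used here. The mean counts summed to 16520414 in PL-VTA, 15437849 in PL-NAc and 16347808 in PL-BLA in the authors' deposited tables. For genes whose mean reached 50, the median SE was 0.219 in PL-VTA, against 0.124 in PL-NAc and 0.129 in PL-BLA, so the PL-VTA values are the least precise. The deposited fold changes are shrunken toward 0, most of all for low counts, and estimates with the shrinkage removed are named as such. A level in pulled-down RNA cannot tell more cells with a transcript from more transcript per cell.

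Mc4r (ENSMUSG00000047259, chromosome 18, 66857704 to 66860506, minus strand, GRCm38) showed an ordered series over the projections. Its log2 fold change of IP over Input was 2.36 (SE 0.29) in PL-VTA, 0.85 (SE 0.27) in PL-NAc and -0.89 (SE 0.32) in PL-BLA, per the authors' deposited tables. The receptor mRNA was thus 5.12 times as abundant in the IP as in the Input of PL-VTA, 1.80 times in PL-NAc, and 1.86 times as abundant in the Input as in the IP of PL-BLA, on the shrunken scale of the authors' deposited tables. Its mean normalized count was 227 in PL-VTA, 69.7 in PL-NAc and 50.4 in PL-BLA in the authors' deposited tables. Each neighbour in this order differed by more than both SEs together. PL-VTA minus PL-NAc was 1.51 (SE 0.39), PL-VTA minus PL-BLA was 3.25 (SE 0.43), and PL-NAc minus PL-BLA was 1.74 (SE 0.42).

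A mean count and a fold change together give the level in IP and in Input, if both kinds of library are equal in number as here. For Mc4r these derived levels, with the shrinkage removed, were 393 normalized counts in PL-VTA IP and 61.9 in PL-VTA Input. They were 91.7 in PL-NAc IP and 47.7 in PL-NAc Input, and 32.4 in PL-BLA IP and 68.4 in PL-BLA Input. The 3 Input levels lay within 1.43-fold of each other, while the PL-VTA IP level was 4.28 times that of PL-NAc IP and 12.1 times that of PL-BLA IP. Derived levels have no error of their own, and the 3 tables were normalized separately. For the 11937 genes whose mean reached 50 in every table, the median fold gap of Input levels between tables was 1.06 to 1.09, and 95% of genes lay within 1.20 to 1.30, so the Mc4r Input levels were farther apart than is usual for genes at all levels.

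Npr3 (ENSMUSG00000022206, chromosome 15, 11839896 to 11907287, minus strand) and Fam84b (ENSMUSG00000072568, chromosome 15, 60818994 to 60853778, minus strand) showed nearly the same profile. Npr3 had a log2 fold change of 1.57 (SE 0.29) in PL-VTA, -0.01 (SE 0.25) in PL-NAc and -1.18 (SE 0.27) in PL-BLA, per the authors' deposited tables. Fam84b had 1.47 (SE 0.29) in PL-VTA, -0.11 (SE 0.24) in PL-NAc and -1.32 (SE 0.27) in PL-BLA, per the authors' deposited tables. Both were about level between IP and Input in PL-NAc, on the IP side in PL-VTA and on the Input side in PL-BLA. Mean normalized counts of Npr3 were 218, 81.7 and 77.6 in PL-VTA, PL-NAc and PL-BLA, per the authors' deposited tables. Those of Fam84b were 253, 98.7 and 76.0 in PL-VTA, PL-NAc and PL-BLA, per the authors' deposited tables. For Npr3 the difference was 1.58 (SE 0.38) for PL-VTA minus PL-NAc and 2.75 (SE 0.39) for PL-VTA minus PL-BLA. For Fam84b it was 1.58 (SE 0.38) for PL-VTA minus PL-NAc and 2.79 (SE 0.40) for PL-VTA minus PL-BLA.

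The derived levels of Npr3 were 338 in PL-VTA IP against 98.2 in PL-VTA Input, 81.5 in PL-NAc IP against 81.9 in PL-NAc Input, and 44.1 in PL-BLA IP against 111 in PL-BLA Input. Those of Fam84b were 385 in PL-VTA IP against 121 in PL-VTA Input, 94.6 in PL-NAc IP against 103 in PL-NAc Input, and 39.7 in PL-BLA IP against 112 in PL-BLA Input. In both genes the IP level moved over the projections far more than the Input level, which stayed within 1.36-fold for Npr3, beyond the range of most genes, and 1.18-fold for Fam84b. Fam84b shares exon sequence with another gene. The noncoding transcript 9930014A18Rik runs on the opposite strand at 60822271 to 60831793 of chromosome 15 and overlaps 2474 bases of Fam84b exons. The library kit does not mark strand, so reads from the shared bases cannot be told apart. 9930014A18Rik had log2 fold changes of 1.31 (SE 0.43) in PL-VTA, -0.15 (SE 0.40) in PL-NAc and -0.60 (SE 0.39) in PL-BLA, per the authors' deposited tables.

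Chst8 (ENSMUSG00000060402, chromosome 7, 34674468 to 34812711, minus strand) lay on the IP side in every projection and stood highest in PL-VTA. It had a log2 fold change of 2.46 (SE 0.19) in PL-VTA, 1.02 (SE 0.14) in PL-NAc and 0.87 (SE 0.16) in PL-BLA, per the authors' deposited tables. The PL-NAc and PL-BLA values differed by 0.15 (SE 0.21), which is within their error, so their order is not resolved. Its mean normalized counts were the highest of the set, with 857 in PL-VTA, 399 in PL-NAc and 324 in PL-BLA in the authors' deposited tables. Derived levels were 1469.9 in PL-VTA IP against 244 in PL-VTA Input, 538 in PL-NAc IP against 261 in PL-NAc Input, and 423 in PL-BLA IP against 226 in PL-BLA Input. PL-VTA minus PL-NAc was 1.44 (SE 0.24), and PL-VTA minus PL-BLA was 1.59 (SE 0.25).

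Krt2 (ENSMUSG00000064201, chromosome 15, 101810689 to 101818169, minus strand) was the least abundant of the set and the least precise. It had a log2 fold change of 2.60 (SE 0.43) in PL-VTA, 1.36 (SE 0.43) in PL-NAc and 0.54 (SE 0.42) in PL-BLA, per the authors' deposited tables. Its mean normalized count was 54.3 in PL-VTA, 13.7 in PL-NAc and 10.8 in PL-BLA in the authors' deposited tables. The difference was 1.24 (SE 0.61) for PL-VTA minus PL-NAc, 2.06 (SE 0.60) for PL-VTA minus PL-BLA and 0.82 (SE 0.60) for PL-NAc minus PL-BLA. Shrinkage weighed most on this gene. A PL-VTA IP over Input ratio of 6.07 from the authors' deposited table became 17.3 with the shrinkage removed. The derived levels were 103 in PL-VTA IP against 5.94 in PL-VTA Input, 22.9 in PL-NAc IP against 4.59 in PL-NAc Input, and 14.3 in PL-BLA IP against 7.18 in PL-BLA Input. All 3 Input levels were under 10 normalized counts and lay within 1.57-fold of each other, so the ratio rests on very few reads.

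**Figure D1:**
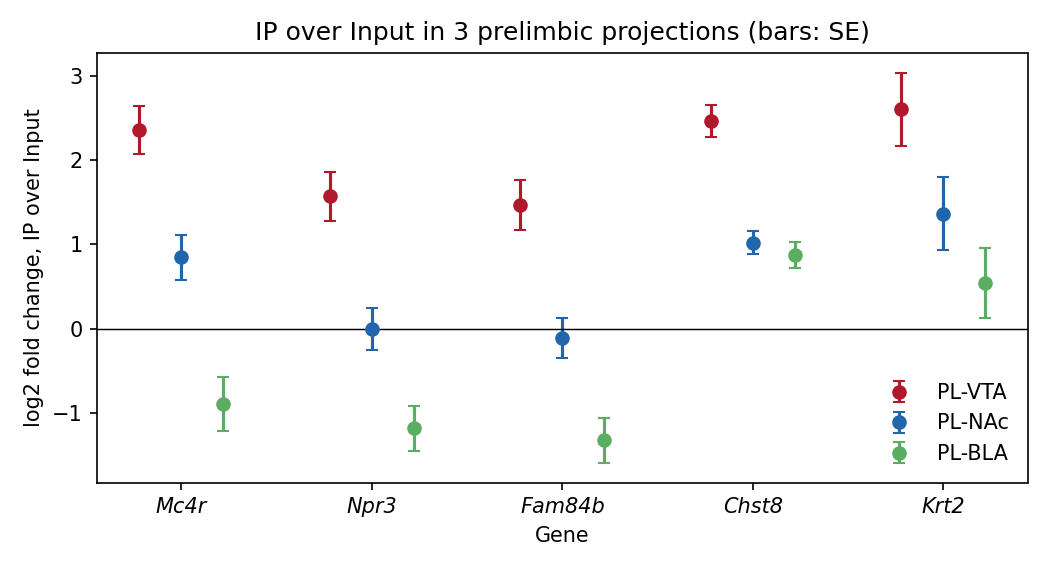
Log2 fold change of IP over Input (vertical axis) for the 5 genes (horizontal axis) in PL-VTA, PL-NAc and PL-BLA, from the authors' deposited tables, with bars of 1 SE. Mc4r, Npr3 and Fam84b step down from PL-VTA through PL-NAc to negative values in PL-BLA, while Chst8 and Krt2 stay above 0 in all 3.

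**Figure D2:**
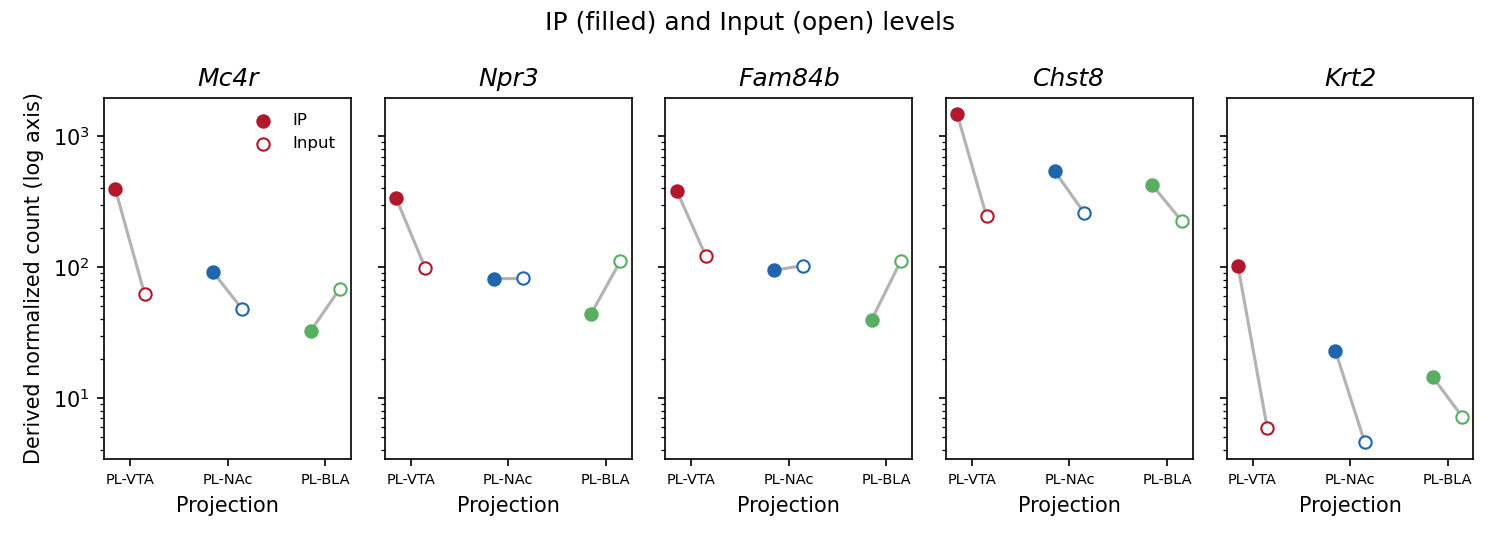
Derived IP (filled) and Input (open) levels in normalized counts on a log axis, for each gene and projection, with no error available. Each gene has its highest filled point in PL-VTA, from 103 for Krt2 to 1469.9 for Chst8, while its Input points differ by 1.16-fold for Chst8 to 1.57-fold for Krt2.

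Per kilobase of annotated exon, the derived PL-VTA IP level was 246 normalized counts for Chst8, 140 for Mc4r, 64.9 for Fam84b, 39.3 for Krt2 and 36.0 for Npr3. On that scale Mc4r stood above Fam84b and Npr3, although their counts per gene were alike. In PL-BLA IP the per-kilobase level was 70.8 for Chst8, 11.5 for Mc4r, 6.71 for Fam84b, 5.49 for Krt2 and 4.69 for Npr3. The order of the 5 genes was the same in both IPs.

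By the shape of the 3 log2 fold changes, the set divided in parts. On the shrunken values, the Euclidean distance between the profiles of Npr3 and Fam84b was 0.21 log2 units, the shortest within the set, and that of Chst8 and Krt2 was 0.50. The closeness of Chst8 and Krt2 rests on the shrinkage. With it removed, Krt2 had 4.11 in PL-VTA, 2.32 in PL-NAc and 0.998 in PL-BLA. Chst8 then had 2.59 in PL-VTA, 1.05 in PL-NAc and 0.91 in PL-BLA. Mc4r lay 1.19 from Npr3 and 1.38 from Fam84b, against 1.78 from Chst8 and 1.54 from Krt2. Npr3 and Fam84b were 2.43 to 2.66 away from Chst8 and Krt2.

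Among 15440 genes with an adjusted p in PL-VTA, 11.0% were called higher in the IP (adjusted p under 0.05, DESeq2 Wald test, authors' deposited table), and the 5 genes were among them, as their choice fixed, while 10.5% of genes were called lower and none of the 5 was. In PL-NAc, 3 of the 5 were called higher where 21.4% of genes were, and none lower where 21.7% were. In PL-BLA 1 was called higher where 20.8% were, and 3 were called lower where 20.2% were. Only Chst8 was called higher in all 3, and Krt2 was not called in PL-BLA. For the difference between projections, 1.28% of 21559 genes were called higher in PL-VTA than in PL-NAc (Wald z of the 2 fold changes, Benjamini-Hochberg adjusted p under 0.05), and 4 of the 5 were, Krt2 being the exception. None of the 5 was lower, against 1.02% of genes. Against PL-BLA, 1.49% of 21613 genes were called higher, and all 5 were, and 1.56% were called lower, none of the 5 among them. These calls used the shrunken values. With the shrinkage removed, PL-VTA minus PL-BLA for Krt2 was 3.12 (SE 1.03), against 2.06 (SE 0.60) as deposited. That lies fewer SEs from 0 than the same difference of Mme, a peptidase gene, with an adjusted p of 0.052 (Wald z) in that setting. The Krt2 call against PL-BLA is therefore lost there, and whether the other genes of the set keep theirs was not examined. Both differences were called higher for 0.861% of 21129 genes. These shares give the background only, since the same contrasts chose the genes.

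The 5 genes were not the extremes of every ranking. Among 11937 genes with a mean of at least 50 in every table, Chst8 ranked 3 and Mc4r 5 by the PL-VTA fold change, and Npr3 ranked 41 and Fam84b 50. By the smaller of the differences from PL-NAc and from PL-BLA, Npr3 ranked 30, Fam84b 31, Mc4r 37 and Chst8 41. Krt2, below that minimum, ranked 4 by fold change and 117 by the smaller difference among 14720 genes with a mean of at least 10. The 10 genes with the largest smaller difference were Carhsp1, Pou3f1, mt-Nd2, Tac1, Malat1, mt-Nd6, mt-Nd5, Igfbp4, Syndig1l and Scn4b. Of these, 5 had a PL-VTA log2 fold change below 0 in the authors' deposited table, so they were less on the Input side in PL-VTA than elsewhere. Several carried a wide error, such as Tac1, the substance P precursor, with 0.51 (SE 0.45) at a mean count of 2075 in PL-VTA in the authors' deposited table. Among the 183 of these 11937 genes that were at least 2-fold higher in PL-VTA IP, Npr3 ranked 10, Fam84b 11, Mc4r 13 and Chst8 16 by the smaller difference. Just ahead of Npr3 stood Tns1 at 1.65, and just behind Chst8 stood Bcl11b at 1.43, against 1.58 for Npr3 and 1.44 for Chst8.

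The precision of the 5 genes in PL-VTA was also set beside genes of similar abundance, with a mean up to 25% above or below. The SE of Mc4r was larger than that of 56.4% of such genes, of Npr3 than 52.1%, of Chst8 than 70.2%, of Fam84b than 83.4% and of Krt2 than 89.9%. For Fam84b the SE was 0.29, against a median of 0.28 for its neighbours in abundance. A low Input count also widens this error, and for Krt2 the derived PL-VTA Input level was 5.94, so the spread between libraries cannot be read from it.

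The genes whose 3 fold changes most resembled those of Npr3, Fam84b and Krt2 included known markers of extratelencephalic neurons. Those nearest to Mc4r and Chst8 included none of the markers listed for that class. The same fold changes chose the set, so genes near it had to stand high in PL-VTA. Likeness was the Euclidean distance over the 3 projections among genes with a mean of at least 50, or at least 10 for Krt2. Nearest to Mc4r were Cxcl12 at 0.53, a chemokine gene, and then Tcerg1l, Lypd1, Kcng2 and Npr3. Cxcl12 had 1.99 (SE 0.19) in PL-VTA, 0.51 (SE 0.12) in PL-NAc and -0.72 (SE 0.15) in PL-BLA, per the authors' deposited tables. Nearest to Npr3 were Fam84b, Tekt5, Gpr4, Tcerg1l and Parm1, and nearest to Fam84b were Npr3, Tekt5, Gpr4, Shisa2 and Bcl11b. Bcl11b encodes CTIP2, a transcription factor of subcerebral projection neurons, and had 1.16 (SE 0.14) in PL-VTA, -0.28 (SE 0.09) in PL-NAc and -1.09 (SE 0.09) in PL-BLA, per the authors' deposited tables. Nearest to Chst8 were Cdh13 at 0.39, a cadherin gene, Adcyap1, which encodes the neuropeptide PACAP, Pcsk5, Kcng1 and Slc5a5. Nearest to Krt2 were Cdh13, Crym, Fezf2, Chst8 and Pcsk5, by its strongly shrunken values with SEs of 0.42 to 0.43. Fezf2, the transcription factor that specifies subcerebral projection neurons, had 2.94 (SE 0.15) in PL-VTA, 1.57 (SE 0.08) in PL-NAc and 0.84 (SE 0.10) in PL-BLA, per the authors' deposited tables.

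The set was then placed beside marker lists of cell classes. Of 11 extratelencephalic markers tested in PL-VTA, 8 were called higher and none lower in the authors' deposited table (adjusted p under 0.05, DESeq2), where 11.0% of all genes were higher and 10.5% lower. Their median log2 fold change was 1.16, against 0.02 for all genes tested. Of 12 such markers, 7 were higher in PL-VTA than in PL-NAc, where 1.28% of all genes were. Against PL-BLA, 8 of the 12 were higher in PL-VTA, where 1.49% of all genes were. Of 10 intratelencephalic markers, none was called higher and 7 were called lower in PL-VTA in the authors' deposited table, with a median of -0.996. In PL-NAc 5 of them were called higher and 4 lower, where 21.4% of all genes were higher and 21.7% lower. In PL-BLA 5 were called higher and 3 lower, where 20.8% of all genes were higher and 20.2% lower. By the differences, 5 were lower in PL-VTA than in PL-NAc, where 1.02% of all genes were. Another comparison, with PL-BLA, had 6 lower in PL-VTA, where 1.56% of all genes were. Pou3f1, a POU transcription factor of layer 5, stood above every one of the 5 genes in both differences, with 2.44 (SE 0.18) from PL-NAc and 3.53 (SE 0.19) from PL-BLA. Mc4r came next to Pou3f1 among the positive differences from PL-BLA of the set and both marker lists, at 3.25. All astrocyte, oligodendrocyte and microglia markers were on the Input side in every table, a direction fixed by how the sign of the tables was read. Th, which makes dopamine, had a log2 fold change of -1.34 (SE 0.22) in PL-VTA in the authors' deposited table, on the Input side.

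**Figure D3:**
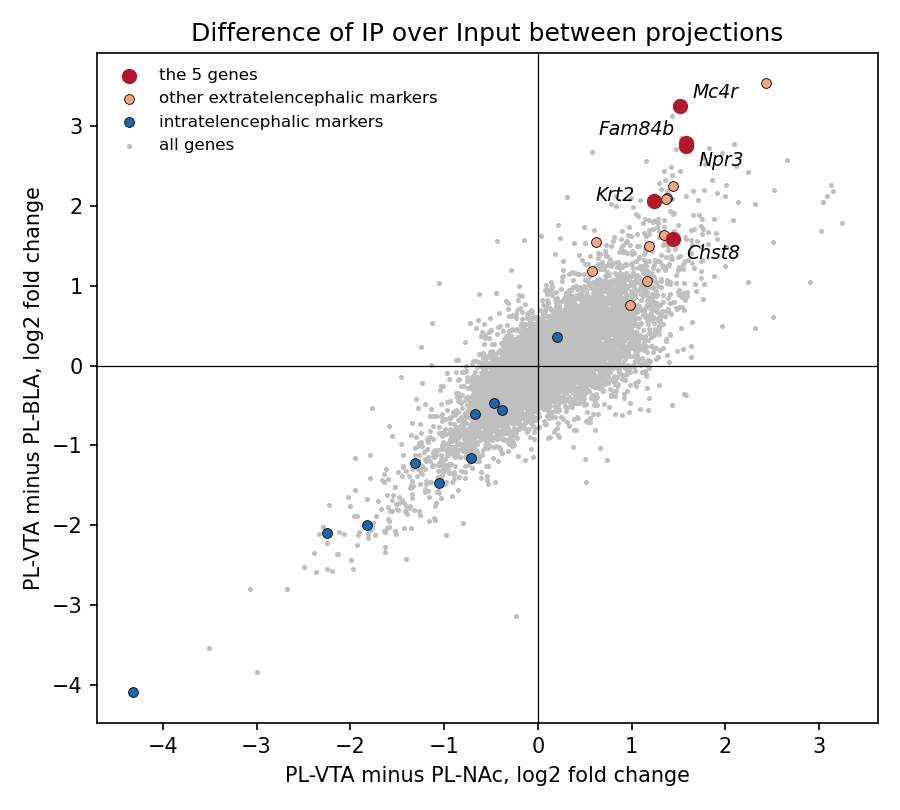
Each point is 1 gene, with the PL-VTA minus PL-NAc difference of log2 fold changes on the horizontal axis and PL-VTA minus PL-BLA on the vertical axis. The 5 genes, chosen as highest in PL-VTA, sit at the upper right among the extratelencephalic markers. Mc4r has the highest vertical value of the set at 3.25, and most intratelencephalic markers sit at the lower left. The axes share the PL-VTA values, so the tilt of the cloud is no result.

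The receptor side of melanocortin signalling was checked next. Mc3r, the other melanocortin receptor of the brain, had 0.70 (SE 0.43) in PL-VTA, 0.02 (SE 0.40) in PL-NAc and -0.76 (SE 0.40) in PL-BLA, per the authors' deposited tables. It was not called in any of these, and its mean count was 12.7 in PL-VTA, 3.30 in PL-NAc and 5.56 in PL-BLA in the authors' deposited tables. Mc1r and Mc2r were listed at 0 in PL-VTA, and Mc5r had a mean of 2.25 in the authors' deposited table. Mrap2, an accessory protein of Mc4r, had 0.28 (SE 0.37) in PL-VTA in the authors' deposited table and was not called there. On the ligand side, Pomc had -0.01 (SE 0.44) at a mean of 34.2 in PL-VTA in the authors' deposited table, and Agrp, the antagonist, had a mean of 3.10.

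Of 12 melanocortin genes tested in PL-VTA in the authors' deposited table, none was called higher, and 1 was called lower at a DESeq2 adjusted p under 0.05. That gene was Sdc3, a syndecan that modulates agouti-related protein, with -0.57 (SE 0.15, adjusted p = 0.001) per the authors' deposited table. The median was 0.15, against 0.02 for all genes, of which 11.0% were called higher and 10.5% lower in PL-VTA. In PL-NAc 5 of 13 were called higher and 1 lower in the authors' deposited table, where 21.4% of all genes were higher and 21.7% lower. Among them Cpe and Mrap2 lost their call with centring on the median gene, at adjusted p-values of 0.066 and 0.071 from the centred Wald statistic. In PL-BLA 4 of 13 were called higher and none lower in the authors' deposited table, where 20.8% of all genes were higher and 20.2% lower. Pcsk2, a convertase that cuts Pomc, was 0.56 (SE 0.15) lower in PL-VTA than in PL-BLA by the Wald z (adjusted p = 0.012). It was the only one of 14 called in either difference. Of all genes, 1.28% were called higher and 1.02% lower against PL-NAc, and 1.49% and 1.56% against PL-BLA. Gnas, the G protein subunit that couples Mc4r, had 0.33 (SE 0.23) in PL-VTA in the authors' deposited table and was not called there.

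Npr1 and Npr2, the receptors with a guanylyl cyclase domain, had -0.57 (SE 0.44) and -0.28 (SE 0.26) in PL-VTA in the authors' deposited table, and neither was called there. In PL-NAc the authors' deposited table gave Npr1 -1.73 (SE 0.41) and Npr2 -0.45 (SE 0.17), and both were called lower. In PL-BLA it was -0.29 (SE 0.40) for Npr1 and -0.32 (SE 0.16) for Npr2 in the authors' deposited table, and neither was called. Among the ligands, Nppc, which encodes C-type natriuretic peptide, had 0.03 (SE 0.33) in PL-VTA, 1.12 (SE 0.18) in PL-NAc and 0.66 (SE 0.20) in PL-BLA, per the authors' deposited tables, and was called higher in PL-NAc and PL-BLA. Its difference between PL-VTA and PL-NAc, -1.09 (SE 0.38), was not called (adjusted p = 0.129, Wald z). Nppa, Nppb and Ostn, which encode other ligands of Npr3, had means under 10 in every one of the authors' deposited tables.

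Of 9 natriuretic genes tested in PL-VTA, none was called higher and 2 were called lower in the authors' deposited table (DESeq2 adjusted p under 0.05), with a median of -0.57. Over all genes 11.0% were called higher and 10.5% lower there. Pde5a, which breaks down cyclic GMP, had -1.43 (SE 0.43, adjusted p = 0.007), and Furin, a convertase, had -0.79 (SE 0.27, adjusted p = 0.019) in the authors' deposited table. Pde5a was also called lower in PL-NAc and in PL-BLA in the authors' deposited tables. Mme encodes neprilysin, a peptidase that degrades natriuretic peptides. It was 1.68 (SE 0.52) higher in PL-VTA than in PL-BLA (adjusted p = 0.038, Wald z), being on the Input side at -0.83 in PL-VTA and -2.51 in PL-BLA in the authors' deposited tables.

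Among carbohydrate sulfotransferases, Chst15 also stood highest in PL-VTA. Chst15, which sulfates chondroitin sulfate, had 1.08 (SE 0.18) in PL-VTA, 0.14 (SE 0.11) in PL-NAc and 0.08 (SE 0.11) in PL-BLA, per the authors' deposited tables. It was 0.94 (SE 0.21) higher in PL-VTA than in PL-NAc (adjusted p = 0.001, Wald z) and 0.998 (SE 0.21) higher than in PL-BLA. No other of the 14 genes compared was called in either difference. Over all genes, 1.28% were called higher and 1.02% lower against PL-NAc, and 1.49% and 1.56% against PL-BLA. Chst9, the enzyme closest in action to Chst8, had 0.71 (SE 0.41) in PL-VTA, 1.18 (SE 0.44) in PL-NAc and 0.51 (SE 0.41) in PL-BLA, per the authors' deposited tables, and was called in PL-NAc only. Its mean count was 9.89 in PL-VTA in the authors' deposited table, against 857 for Chst8. B4galnt3 and B4galnt4 make the sugar structure that Chst8 sulfates. B4galnt3 had a mean of 1.87 in PL-VTA, and B4galnt4 had 842 with a log2 fold change of 0.10 (SE 0.19) in the authors' deposited table. Of 12 genes of the list tested in PL-VTA, 2 were called higher and 1 lower in the authors' deposited table (DESeq2 adjusted p under 0.05), with a median of -0.05, where 11.0% of all genes were called higher and 10.5% lower. These were Chst15, Chst12 at 0.70 (SE 0.20) and Chst2 at -0.40 (SE 0.14), all in the authors' deposited table.

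The closest relative of Fam84b, Fam84a, had 0.65 (SE 0.16) in PL-VTA, -0.56 (SE 0.08) in PL-NAc and -0.24 (SE 0.08) in PL-BLA, per the authors' deposited tables. It was called higher in PL-VTA and lower in PL-NAc and PL-BLA. Its difference was 1.21 (SE 0.18) from PL-NAc and 0.89 (SE 0.18) from PL-BLA, both called by the Wald z. Its mean count of 3181 in PL-VTA in the authors' deposited table was above the 253 of Fam84b. Of the 3 relatives tested in PL-VTA, 1 was called higher and 1 lower, where 11.0% of all genes were higher and 10.5% lower. The one called lower was Pla2g16, a phospholipase of this family, at -2.05 (SE 0.26) in PL-VTA, -2.27 (SE 0.18) in PL-NAc and -2.01 (SE 0.16) in PL-BLA, per the authors' deposited tables. Hrasls had -0.25 (SE 0.17) in PL-VTA in the authors' deposited table and was not called.

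**Figure D4:**
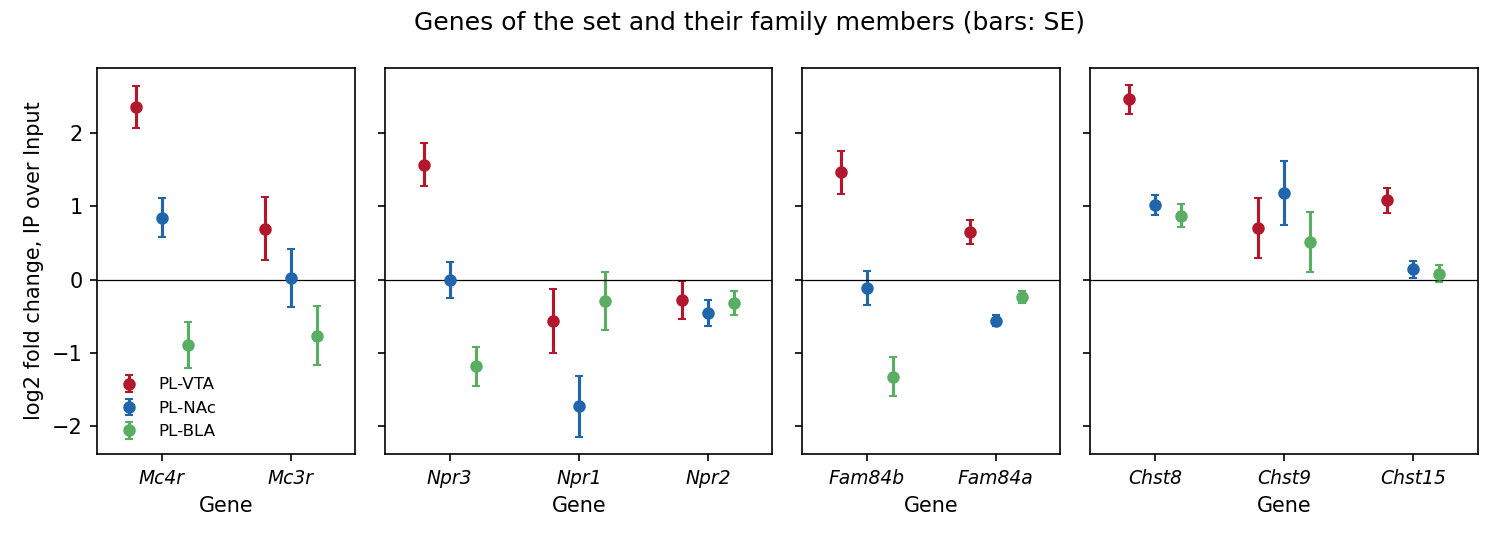
Log2 fold change of IP over Input (vertical axis, bars of 1 SE, authors' deposited tables) for Mc4r, Npr3, Fam84b and Chst8 beside relatives, in PL-VTA, PL-NAc and PL-BLA. Fam84a and Chst15 also stand highest in PL-VTA, whereas Npr1 and Npr2 lie below 0 in all 3.

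Krt2 lies in the type II keratin cluster of chromosome 15, where most genes had no reads to speak of. Of the 26 keratin genes in that cluster, 9 were listed at 0 in PL-VTA and 6 had an adjusted p in the authors' deposited table. The adjoining genes Krt1 and Krt77, keratins of the epidermis and its glands, were called higher in all 3 projections. Krt1 had 1.32 (SE 0.34) in PL-VTA, 1.27 (SE 0.22) in PL-NAc and 1.22 (SE 0.24) in PL-BLA, per the authors' deposited tables. Krt77 had 1.32 (SE 0.28) in PL-VTA, 1.20 (SE 0.18) in PL-NAc and 1.22 (SE 0.18) in PL-BLA, per the authors' deposited tables. Their PL-VTA minus PL-NAc differences were 0.05 (SE 0.41) for Krt1 and 0.12 (SE 0.33) for Krt77, and neither was called. Krt73, on the other side of Krt2, had 0.21 (SE 0.43) in PL-VTA, -0.45 (SE 0.37) in PL-NAc and -0.36 (SE 0.39) in PL-BLA, per the authors' deposited tables, and was not called.

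A list of 30 other keratins was read next, which left out Krt87, tested in PL-VTA and not called there. Of 8 listed keratins tested in PL-VTA, 2 were called higher and 1 lower in the authors' deposited table (DESeq2 adjusted p under 0.05). Their median was 0.25, and 11.0% of all genes were called higher and 10.5% lower. The one called lower was Krt222 at -0.68 (SE 0.18) in the authors' deposited table. Krt12, known from the cornea, had -0.56 (SE 0.29) in PL-VTA, 0.77 (SE 0.15) in PL-NAc and 0.72 (SE 0.16) in PL-BLA, per the authors' deposited tables. It was 1.33 (SE 0.33) lower in PL-VTA than in PL-NAc (adjusted p = 0.004, Wald z) and 1.28 (SE 0.33) lower than in PL-BLA (adjusted p = 0.005), the reverse of Krt2. As a check for skin, the keratinocyte markers Krt5 and Dsg1a had PL-VTA means of 0.22 and 0.25, and Krt14 and Krtdap were listed at 0, in the authors' deposited table. The 8 keratinocyte markers summed to 749 normalized counts in PL-VTA, 599 in PL-NAc and 648 in PL-BLA in the authors' deposited tables, nearly all from Krt10, Lor, Sbsn and Krt1.

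**Figure D5:**
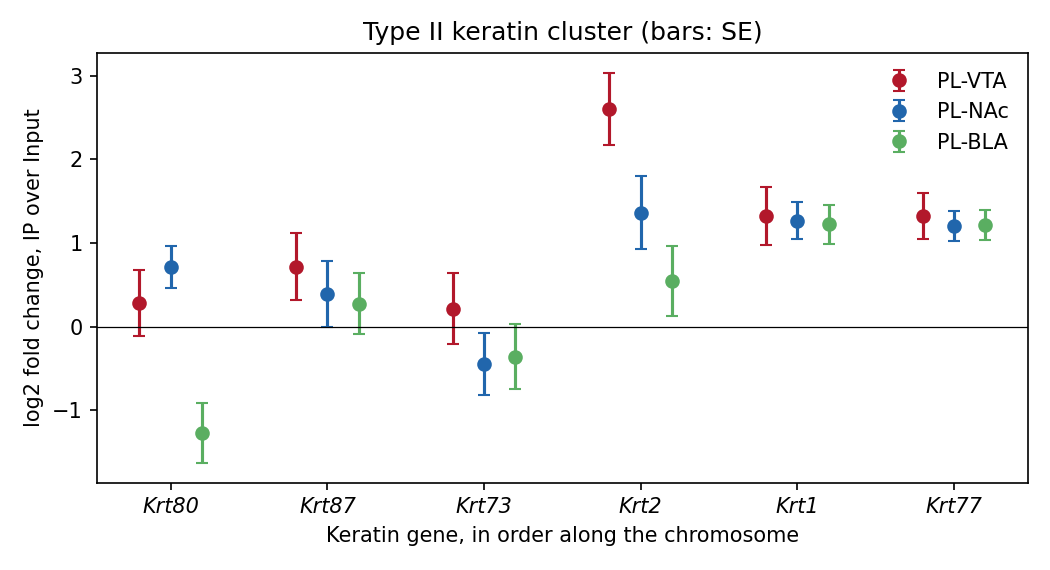
Log2 fold change of IP over Input (vertical axis, bars of 1 SE, authors' deposited tables) for the keratin genes of the cluster with an adjusted p in PL-VTA, in chromosomal order. Krt1 and Krt77 show the same value near 1.2 to 1.3 in each projection, while Krt2 steps down from 2.60 in PL-VTA to 0.54 in PL-BLA.

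All 5 genes are on the minus strand, and 3 are on chromosome 15, far apart. The 2 nearest genes with an adjusted p on each side of each gene were compared in the same way. Against PL-NAc, 1.28% of all genes were called higher in PL-VTA and 1.02% lower, and against PL-BLA 1.49% and 1.56%. At those shares few calls would be met among so few genes. The transcript 9930014A18Rik, which overlaps Fam84b, was 1.91 (SE 0.58) higher in PL-VTA than in PL-BLA (adjusted p = 0.036, Wald z). None of the other neighbours was called in either difference. They were Pmaip1, Ccbe1, Gnal and Mppe1 around Mc4r, Tars, Rxfp3, Sub1 and Zfr around Npr3, Gm7713, Myc and Pvt1 around Fam84b, Kctd15, Lsm14a, Pepd and Cebpg around Chst8, and Krt73, Krt87, Krt1 and Krt77 around Krt2. Kctd15, only 17.7 kb from Chst8, had -0.30 (SE 0.41) in PL-VTA, -0.52 (SE 0.30) in PL-NAc and -0.77 (SE 0.30) in PL-BLA, per the authors' deposited tables. Gnal, which neighbours Mc4r, had a wide error in PL-VTA, -0.15 (SE 0.41) at a mean of 3124 in the authors' deposited table, so a PL-VTA minus PL-NAc difference as small as its 0.26 (SE 0.42) could not be resolved.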

How the data were processed

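RNA of PL tissue (Input) and tagged polysomes (IP) was sequenced after library preparation with the SMARTer Ultra Low and Nextera XT kits, per the labels' protocols. The authors used STAR 2.3 for alignment, featureCounts for counting and DESeq2 for the comparisons, with builds named mm10 and GRCm38, according to the submitters' processing notes. Not given in the sources used here are the strand setting, the annotation release, filters, the model formula and other versions.

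The 3 deposited tables were used, with 39017 gene rows each. Per the file headers, the signal of a gene is the authors' mean normalized count, taken over all libraries of a projection. Its log2 fold change and SE are also the authors', as the headers name them, and the test score is the authors' Wald statistic. Each p-value and adjusted p-value was used as deposited. The adjusted p is blank below a mean of 8.58 in PL-VTA, 1.82 in PL-NAc and 2.39 in PL-BLA, and such genes were not called. All 5 genes carried one in every table. The headers do not name the direction, which was read as IP over Input from negative values of glial and mitochondrially encoded transcripts.

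Samples were grouped by title. Differences between projections, which share no library, were tested as a two-sided Wald z over genes with an SE in both tables, with Benjamini-Hochberg adjustment, using Python 3.11.15, pandas 2.3.3 and scipy 1.17.1. The script was tested on simulated data. The SEs followed a normal prior whose SD is 2 times the largest SE of a table, and shrinkage was removed on that basis for genes with a mean of at least 10. Gene coordinates and exon lengths are from GENCODE M21. Named genes were the 5 genes, list genes called in PL-VTA or in a difference, ligands and receptors of their pathways, the 5 genes nearest each in profile, the 10 highest by the smaller difference and the 2 neighbours on each side. Other list genes, Tns1 and the genes given by mean count alone were named after their values were seen. The 5 genes, the lists and the tests were chosen with earlier results of these data known. Asip and Pde2a were not analysed here. Alternatives were a stricter threshold, a mean of at least 50, centring on the median and removal of the shrinkage.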

Additional observations from a re-analysis of the deposited data

Results flagged for a closer look

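These results differ between projections by the Wald z with a Benjamini-Hochberg adjusted p under 0.05. All are differences of log2 fold changes of IP over Input, and none belongs to the 5 genes themselves.

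Fam84a, the relative of Fam84b, was higher in PL-VTA than in PL-NAc by 1.21 and than in PL-BLA by 0.89. Chst15, a sulfotransferase like Chst8, was higher in PL-VTA than in PL-NAc by 0.94 and than in PL-BLA by 0.998. Krt12 ran the other way, with -1.33 for PL-VTA minus PL-NAc and -1.28 for PL-VTA minus PL-BLA. Pcsk2, a convertase acting on Pomc, had -0.56 for PL-VTA minus PL-BLA. Mme, the neprilysin gene, had 1.68 for PL-VTA minus PL-BLA, with both projections on the Input side. That call was lost with the shrinkage removed. The transcript 9930014A18Rik, which shares exon bases with Fam84b on the other strand, had 1.91 for PL-VTA minus PL-BLA, and the part of Fam84b reads in it was not tested.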

How the results depend on the processing

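At an adjusted p under 0.01, 1099 in place of 1702 genes were called higher in PL-VTA IP, 169 in place of 275 were higher in PL-VTA than in PL-NAc, and 145 in place of 219 were lower. Removal of the shrinkage was an alternative chosen after seeing the data. With it, the PL-VTA log2 fold change was 2.67 (SE 0.33) for Mc4r and 4.11 (SE 0.69) for Krt2. PL-VTA minus PL-BLA was then 3.74 (SE 0.51) for Mc4r and 3.12 (SE 1.03) for Krt2. For Krt2 these SEs were wider than the 0.43 and 0.60 of the shrunken values. The Krt2 call for PL-VTA minus PL-BLA was lost with the shrinkage removed. The planned form of that alternative, with a prior SD equal to the largest SE, was not run, because it allows no fall of the SE at low means. No direction of the 5 genes reversed with the shrinkage removed or with centring. Of the calls on list genes and neighbours, 63 held and 20 were lost at an adjusted p under 0.01, 78 held and 5 were lost with centring, all 71 that could be tested held at a mean of at least 50, and 79 held and 1 was lost with the shrinkage removed, that of Mme for PL-VTA minus PL-BLA. No paired analysis was possible because the tables hold no values of single libraries, and no library could be left out for the same reason. Low counts limit Krt2 among the 5 genes, and PL-VTA has 2 libraries a group.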

Other observations

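With genes of a mean of at least 10 admitted, the 5 nearest profiles shared 1 gene with those at a mean of at least 50 for Mc4r, 4 for Npr3, 4 for Fam84b and 3 for Chst8. The genes newly near Mc4r were Dlk1, L3mbtl4, C1ql2 and Cda. Dlk1, a secreted or membrane-bound relative of Notch ligands, had log2 fold changes of 2.69 (SE 0.34) in PL-VTA, 1.27 (SE 0.34) in PL-NAc and -0.43 (SE 0.32) in PL-BLA, per the authors' deposited tables. Cda, which encodes cytidine deaminase, had 2.20 (SE 0.36) in PL-VTA, 0.88 (SE 0.35) in PL-NAc and -0.02 (SE 0.37) in PL-BLA, per the authors' deposited tables. Stac and Vgll3 newly neighboured Npr3 and Fam84b, and Oip5 and Krt2 newly neighboured Chst8, all by the shrunken values.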
